A study of Mus musculus with 2744 samples.

Results

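The 9 genes described here are the transcriptional repressor Rest and the corepressor genes Rcor1, Rcor2, Rcor3, Sin3a, Hdac1, Hdac2, Ctdsp1 and Kdm1a. They were taken by symbol from tables of 23968 genes, and all 9 have a row. The tables hold single-cell RNA-seq of mouse embryonic stem cells taken through an in vitro differentiation into motor neurons, with 2744 wells in a main and a pilot experiment, the study's 2 biological replicates. The groups are Day 6 eGFP++ cells (both experiments), Day 6 eGFP+ cells (1 plate of the main experiment) and cells of Days 2, 3, 4, 5 and 6 with no eGFP gate in their labels (both experiments). All of them come from the same stem cell based protocol with no mutant or drug arm, and the line and the promoter behind eGFP are not given in the sources used here.

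REST is a zinc finger protein that binds the RE1 element and keeps neuronal genes silent in stem cells and other non-neuronal cells. Its N-terminal end recruits SIN3A with the histone deacetylases HDAC1 and HDAC2, and its C-terminal end recruits a CoREST protein (the products of Rcor1, Rcor2 and Rcor3) with the histone demethylase LSD1, made by Kdm1a. CTDSP1 is a small phosphatase that acts with REST at neuronal genes, and REST is known to be lost as progenitors become neurons.

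Wells with at least 500 genes with a read were kept, 2448 in all, and reads were summed over the kept cells of each group and experiment. The 13 sums hold between 16370502 and 100972780 gene reads. A level is given as reads per 1000000 gene reads of the sum (CPM). A share is the percentage of cells with a read after each cell was thinned to 10000 gene reads, since cells differ in depth. Reads of this protocol (a modified CEL-seq with poly(A) priming) carry no molecular identifiers, so the Wilson 95% intervals and the limits given for a count of 0 cover counting error only, and a few strongly amplified cells can set a CPM. In sums over mixed cells, fewer cells of a type and less RNA per cell cannot be told apart. The Day 2, Day 6 and eGFP++ groups carried the markers of their labels. The summed level of 5 pluripotency markers was 12.3 and 31.3 CPM in the main and pilot Day 6 sums, against 3931 and 2542 CPM in the Day 2 sums. The 6 motor neuron markers reached 1086 and 1349 CPM in the eGFP++ sums, against 420.0 and 258.6 CPM in the Day 6 sums. The eGFP+ sum did not stand above main Day 6 in them, with 248.8 CPM. Its 5 neuron markers summed to 809.2 CPM against 1463 CPM on main Day 6, and its 4 markers of dividing cells to 1081 against 830.3 CPM. The 4 markers of extraembryonic endoderm summed to at most 14.2 CPM and the 3 of glia to at most 31.8 CPM in any sum. A main Day 3 plate stood apart, with a median of 1220 genes in its 78 kept cells against 3992 to 4724 on the 4 other Day 3 plates, and leaving it out changed no call of a member.

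Rest itself was highest on Days 2 and 3 and close to absent in eGFP++ cells. Over Days 2, 3, 4, 5 and 6 its level was 18.6, 8.35, 2.16, 4.77 and 0.696 CPM in the main experiment. In the pilot the same days gave 21.7, 23.1, 7.80, 4.67 and 4.44 CPM. Rest (protein coding, chr5:77265491-77286432 on the plus strand of GRCm38) was read 7 times in the main eGFP++ sum, all in 1 cell, and 1 time in the pilot eGFP++ sum, which gives 0.136 and 0.0611 CPM. It had no read in the 83 kept eGFP+ cells, which allows a share of up to 3.61% of cells. Both eGFP++ sums lay below both Day 6 sums, and both Day 6 sums below both Day 2 sums.

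**Figure D1:**
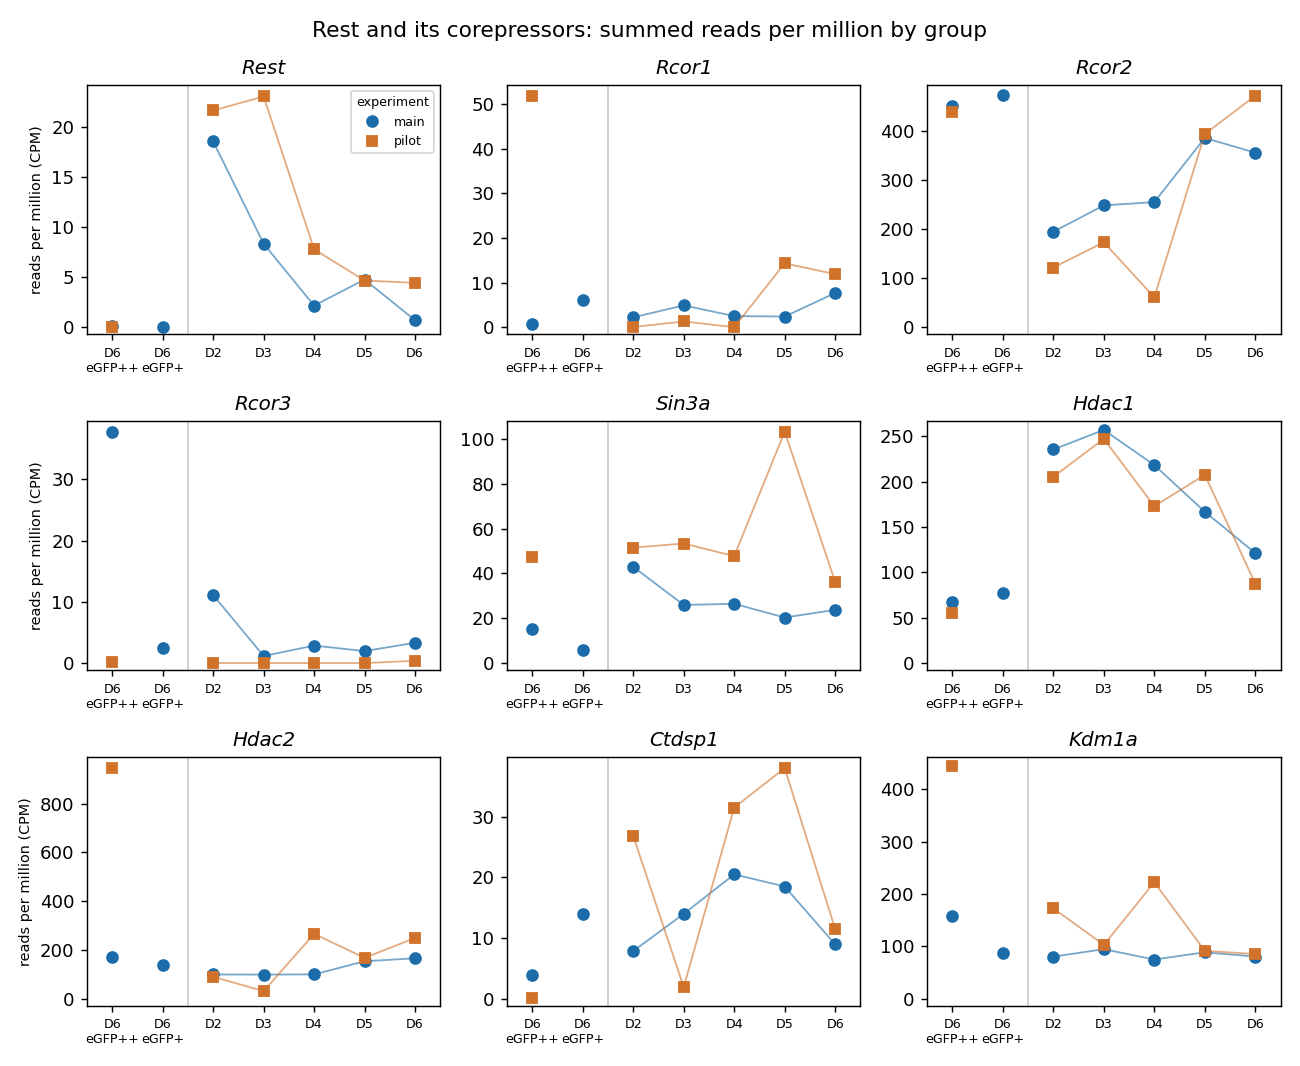
Summed level of each of the 9 genes (y axis, CPM) in each group (x axis), with a circle for the main and a square for the pilot experiment; lines join the days of an experiment, and the eGFP++ and eGFP+ groups stand left of the grey line. Rest lies at 0.136 and 0.0611 CPM in the eGFP++ sums and at 18.6 and 21.7 CPM on Day 2, and Hdac1 at 67.4 and 55.6 CPM in eGFP++ and 235.5 and 205.3 CPM on Day 2.

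Ordered by the mean of both experiments, Rest stood at 20.1 ± 2.19 CPM on Day 2 and 15.7 ± 10.4 CPM the day after. Means of 4.98 ± 3.99, 4.72 ± 0.0707 and 2.57 ± 2.65 CPM followed for the last 3 days, and the lowest was 0.0985 ± 0.0530 in eGFP++ cells (SD, n = 2 each). Day 3 overlapped Day 2 in this order, and the Day 5 values lay within the Day 4 range. Day 4 did not overlap Day 3, Day 6 did not overlap Day 5, and eGFP++ did not overlap Day 6.

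The share of cells with a Rest read had the same high start. In the main experiment it was 13% on Day 2 (46 of 355 cells, interval 9.86 to 16.9%), then 3.08%, 1.33% and 2.45% on the 3 days that followed, and 0.565% on Day 6 (2 of 354 cells, 0.155 to 2.04%). Pilot shares began at 6.76% (5 of 74 cells, 2.92 to 14.9%), passed through 4.35%, 1.75% and 2.67%, and ended at 0 of 71 cells on Day 6, which allows up to 4.23%. Of the eGFP++ cells, 1 of 282 in the main experiment (0.355%) and 0 of 39 in the pilot (up to 7.69%) had one. With all reads of the kept cells, main shares over Days 2 to 6 were 37.4%, 11.1%, 7.05%, 6.63% and 1.41%. Pilot shares were 13.3%, 8.70%, 5.26%, 13.3% and 4.23%, with Day 5 equal to Day 2. Few cells carried the pilot sums: 51% of the Day 3 reads and 88.9% of the Day 4 reads of Rest came from 1 cell each.

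**Figure D2:**
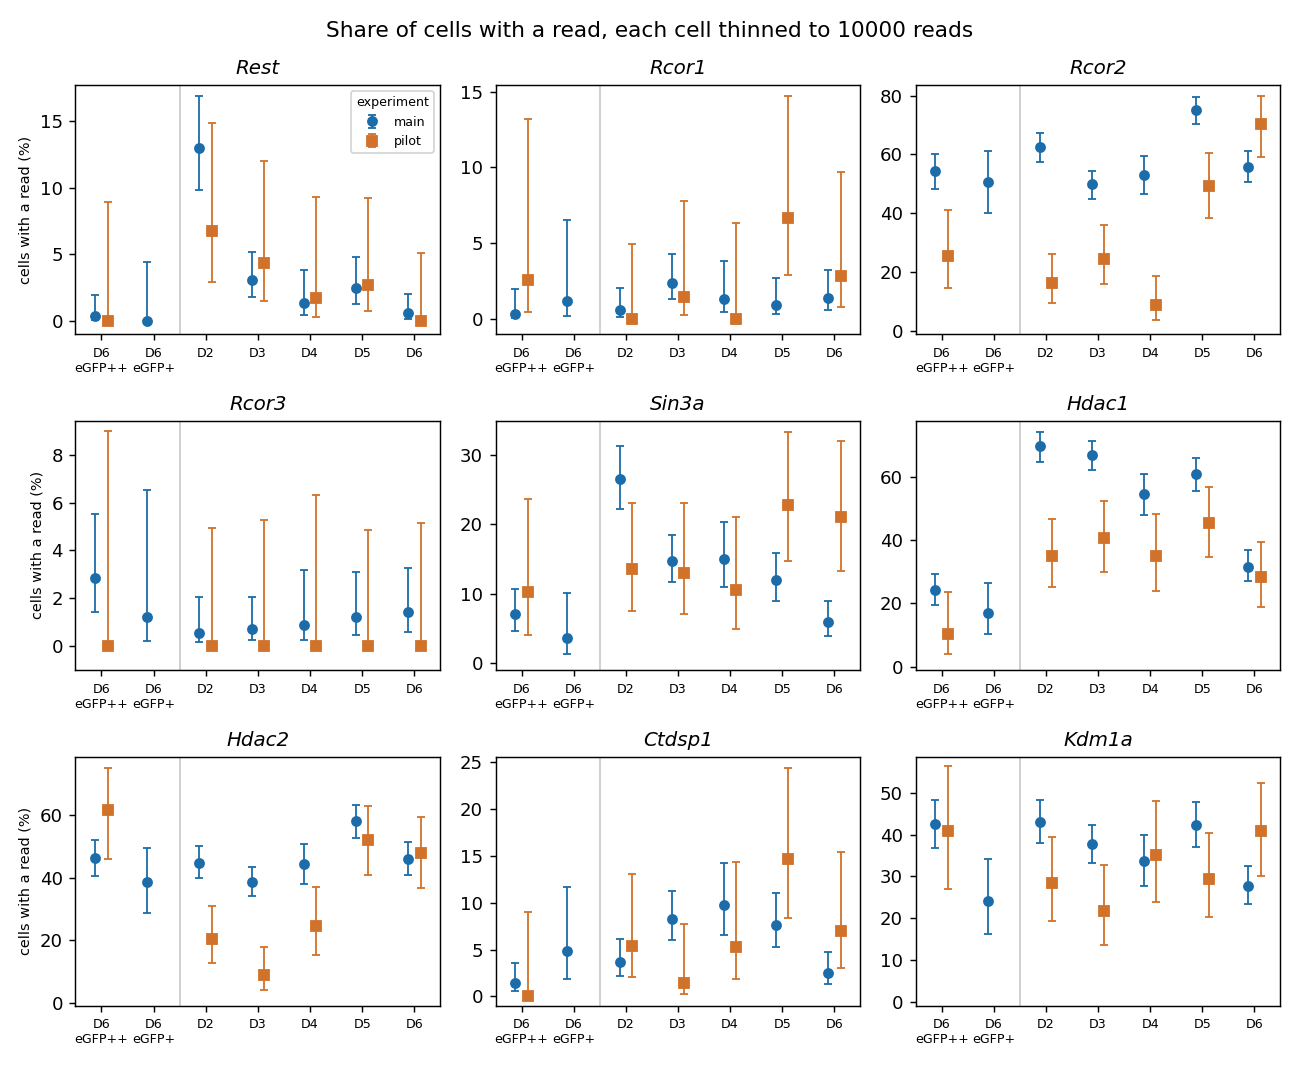
Percentage of cells with a read of each gene (y axis) by group (x axis) after thinning each cell to 10000 gene reads, with Wilson 95% intervals for counting error. The share for Rest is 13% and 6.76% on Day 2 in the main and pilot experiments. In eGFP++ cells it is 0.355% in the main experiment and 0 of 39 cells in the pilot, which allows up to 7.69%. The share for Hdac2 in eGFP++ cells is 46.1% and 61.5%.

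Whether these differences exceed the spread between the experiments was tested over all genes with edgeR's quasi-likelihood test on the sums, with the experiment as a block and Benjamini-Hochberg adjustment, and a gene was called at an adjusted p under 0.05. Rest was lower by a log2 change of -7.47 ± 1.92 (SE) in eGFP++ cells than on Day 2, just outside the call (adjusted p = 0.052). The difference was -3.33 ± 1.59 between Day 6 and Day 2 (adjusted p = 0.384) and -4.14 ± 1.70 between eGFP++ and Day 6 (adjusted p = 0.743). That last value was -1.39 with cells with a read counted and -0.43 with each cell thinned before summing, and 55.1% of the 285 reads of Rest in the pilot Day 6 sum came from 1 of 3 cells. Over Days 2 to 6 the slope was -0.85 ± 0.23 log2 units a day (adjusted p = 0.0648). The share of cells with a Rest read had a mean slope of -2.03 percentage points a day, or -2.54 in the main experiment and -1.52 in the pilot. The exact two-sided permutation of the 5 days within each experiment gave p = 0.00153 and an adjusted p of 0.0508. Rest was thus lower in the later group in both experiments in each of these comparisons but passed none of them. DESeq2 on the same sums called it in all 5 sum comparisons, with adjusted p-values listed with the other settings in the closing section. Comparisons that use Day 2 or Day 6 share those sums.

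Other quantities ran alongside Rest. The 4 markers of dividing cells (Mki67, Top2a, Cdk1 and Ccnb1) summed to 176.2 and 82.2 CPM in eGFP++ cells and 830.3 and 1543 CPM on Day 6, against 1987 and 3368 CPM on Day 2. The spike-in share of gene and spike-in reads was 15.6% and 15.4% on Day 6, against 2.98% and 4.75% on Day 2. The part of both in the Rest values was not tested.

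The genes whose levels followed Rest most closely were found among 8305 genes with at least 20 CPM in a group mean, by Pearson correlation of log2(CPM + 1), centred within each experiment, over 12 sums that share experiments and depth. Chek2, which encodes a DNA damage checkpoint kinase, was the most alike (r = 0.943), followed by the mitotic kinase gene Mastl (0.942), the lysyl-tRNA synthetase gene Kars (0.941), the transcription factor gene Tcfl5 (0.939) and the peroxiredoxin gene Prdx1 (0.938). Chek2 had 2.66 and 4.15 CPM in eGFP++ cells, against 53.3 and 94.9 CPM on Day 2. Prdx1 had 188.0 and 67.5 CPM in eGFP++ cells, against 2748 and 2007 CPM on Day 2. These are descriptions of likeness over few sums.

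The histone deacetylase gene Hdac1 was the 1 member that edgeR called. Hdac1 (chr4:129516104-129542713, minus strand) fell to 67.4 and 55.6 CPM in the main and pilot eGFP++ sums, against 235.5 and 205.3 CPM on Day 2, a log2 change of -1.91 ± 0.38 (edgeR adjusted p = 0.0203). Every eGFP++ and Day 6 sum lay below every sum of Days 2 to 5. In that comparison 2.47% of the 16080 genes tested were called lower and 2.14% were called higher, and 1 of the 9 members was called lower and 0 higher. The call rests on the single pilot eGFP++ sum and on each Day 2 sum. Its adjusted p was 0.0620 without the pilot eGFP++ sum, 0.0675 without the main Day 2 sum and 0.122 without the pilot Day 2 sum, and the log2 changes were then -1.94, -1.95 and -1.87. It was 0.195 in a fit of the 4 sums of these 2 groups alone.

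Day by day, Hdac1 had 235.5, 257.1, 218.3, 166.8 and 121.2 CPM over Days 2 to 6 in the main experiment and 205.3, 247.3, 172.9, 207.5 and 87.6 CPM in the pilot, with 76.7 CPM in eGFP+ cells. The level was flat or slightly higher from Day 2 to Day 3 and lowest on Day 6 in each experiment. Day 6 against Day 2 gave -1.18 ± 0.38 (adjusted p = 0.203), eGFP++ against Day 6 gave -0.73 ± 0.37 (adjusted p = 0.743), and the slope was -0.30 ± 0.08 a day (adjusted p = 0.0649), none of them called by edgeR. DESeq2 called Hdac1 in Day 6 against Day 2 (-1.23, adjusted p = 0.0132) and in the slope (-0.29, adjusted p = 0.00408). An Hdac1 read was found in 24.1% (68 of 282) and 10.3% (4 of 39) of eGFP++ cells and in 31.6% and 28.2% on Day 6, against 69.6% (247 of 355) and 35.1% (26 of 74) on Day 2. Its slope over the days was -8.20 points a day for the main experiment and -0.918 for the pilot (adjusted p = 0.243). Counted as cells with a read and fitted in edgeR, the eGFP++ difference from Day 2 was -0.52 and not called (adjusted p = 0.206). The genes most like Hdac1 by the same measure were Gsr, which encodes glutathione reductase (r = 0.980), the tubulin gene Tuba3a (0.979) and the chromatin remodeller gene Chd1l (0.973).

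Its paralogue Hdac2 did not follow it. Hdac2 (chr10:36974544-37001889, plus strand) had 170.0 and 947.2 CPM in the eGFP++ sums and 166.3 and 249.5 CPM on Day 6, against 99.9 and 90.4 CPM on Day 2. The intermediate days gave 99.5, 100.3 and 154.0 CPM in the main experiment and 31.7, 266.4 and 168.0 CPM in the pilot. Neither eGFP++ against Day 2 (2.31 ± 0.78, edgeR adjusted p = 0.125) nor Day 6 against Day 2 (0.99 ± 0.73, adjusted p = 0.543) was called, and Day 6 against Day 2 turned to -1.32 when sums were scaled to spike-in reads. The pilot eGFP++ value stood far above the others, with 16.4% of its reads in 1 of 39 cells, and the fit gave 1.32 ± 0.74 for eGFP++ against Day 6 (adjusted p = 0.743). Cells with an Hdac2 read made up 46.1% and 61.5% of eGFP++ cells and 46% and 47.9% of Day 6 cells, against 44.8% and 20.3% on Day 2. Its slope was 2.19 points a day for the main experiment and 9.85 for the pilot (adjusted p = 0.195).

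Set against each other within a sum, which needs no scaling between sums, reads of Hdac2 per read of Hdac1 were 2.52 and 17 in eGFP++ cells and 1.37 and 2.85 on Day 6, against 0.424 and 0.440 on Day 2. The intervening main values on Days 3, 4 and 5 were 0.387, 0.459 and 0.924, the pilot values 0.128, 1.54 and 0.810, and the eGFP+ value 1.83. Both eGFP++ and both Day 6 values lay above both Day 2 values, and the groups of Days 4 and 5 overlapped between experiments. This ratio was chosen after its values were seen, has no test, and says nothing of which gene makes more RNA, since reads per transcript can differ between genes.

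The scaffold gene Sin3a was read in a minority of thinned cells throughout, though with all reads it was found in 62.6% of main Day 2 cells. Sin3a (chr9:57072040-57128366, plus strand, overlapping the antisense gene Man2c1os) had 42.9, 25.9, 26.4, 20.3 and 23.7 CPM over Days 2 to 6 in the main experiment and 51.5, 53.3, 47.7, 103.2 and 36.2 CPM in the pilot. The eGFP++ sums held 15.1 and 47.5 CPM and the eGFP+ sum 5.66 CPM. Its pilot Day 5 value was the highest, and its sums on Day 6 lay below those on Day 2 without a call (-0.81 ± 0.66, edgeR adjusted p = 0.577). The share of cells ran in opposite directions, with a slope of -4.38 points a day for the main experiment and 2.48 for the pilot (adjusted p = 0.762). Main shares were 5.93% on Day 6 against 26.5% on Day 2, and pilot shares 21.1% on Day 6 against 13.5% on Day 2. Genes per thinned cell were also fewer on Day 6 than on Day 2 in the main experiment and more in the pilot. Their part in these shares was not tested.

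Of the CoREST genes, Rcor2 was read in 8.77% to 75.2% of thinned cells, depending on the sum, and Rcor1 and Rcor3 in few cells throughout. Rcor2 (chr19:7267325-7275225, plus strand) had 449.2 and 438.7 CPM in eGFP++ cells and 355.1 and 470.9 CPM on Day 6, against 194.2 and 121.4 CPM on Day 2. Between them, Days 3, 4 and 5 gave 247.8, 254.5 and 385.1 CPM in the main experiment and 172.7, 60.8 and 393.0 CPM in the pilot, and eGFP+ cells had 472.4 CPM. The 3 main eGFP++ plates ranged from 183.9 to 683.8 CPM and overlapped the main Day 2 plates, 143.5 to 228.2 CPM. Both Day 2 sums lay below all sums of Days 5 and 6 and eGFP++, yet no comparison was called: edgeR gave 1.48 ± 0.55 for eGFP++ against Day 2 (adjusted p = 0.164), 1.41 ± 0.55 for Day 6 against Day 2 (adjusted p = 0.310) and 0.35 ± 0.13 a day (adjusted p = 0.155), and each turned negative under spike-in scaling (-0.27, -0.89 and -0.19). The share of cells with an Rcor2 read was 55.9% and 70.4% on Day 6, against 62.5% and 16.2% on Day 2, with slopes of 1.22 and 13.3 points a day (adjusted p = 0.298).

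Rcor1 (chr12:111039351-111115901, plus strand), which encodes the CoREST protein first described with REST, was read in at most 6.67% of thinned cells of any group. Over Days 2 to 6 it had 2.21, 4.88, 2.49, 2.38 and 7.66 CPM in the main experiment and 0.0381, 1.28, 0, 14.3 and 11.9 CPM in the pilot, with 0.796 and 51.7 CPM in eGFP++ cells. A single cell held 99.9% of the 846 reads of the pilot eGFP++ sum. Rcor3 (chr1:192098546-192138062, minus strand) was read in at most 2.84% of thinned cells. It had no read in the pilot on Days 2 to 5 and 37.7 CPM in the main eGFP++ sum, where 79.1% of the reads came from 1 cell, against 11.1 CPM in the main Day 2 sum, where 94% did. edgeR called neither gene in any comparison. DESeq2 called Rcor1 in eGFP++ against Day 2 (5.48, adjusted p = 0.0481, against 0.419 with edgeR), where 1 cell holds nearly all reads of the pilot eGFP++ sum.

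Kdm1a and Ctdsp1 showed no steady course over the days. Kdm1a (chr4:136550540-136602723, minus strand, overlapping Luzp1 on the other strand) had 80.4, 94.6, 74.9, 88.7 and 80.5 CPM over Days 2 to 6 in the main experiment and 172.5, 102.8, 222.2, 91.6 and 85.2 CPM in the pilot. It reached 158.4 and 443.5 CPM in eGFP++ cells, above both Day 6 sums, and had 87.4 CPM in eGFP+ cells. The difference of eGFP++ from Day 6 was 1.73 ± 0.51 (edgeR unadjusted p = 0.00633, adjusted p = 0.522), with 30.3% of the pilot eGFP++ reads in 1 cell. Its share of cells was 42.6% and 41% in eGFP++ cells, against 27.7% and 40.8% on Day 6. Ctdsp1 (chr1:74391509-74397285, plus strand, holding the microRNA gene Mir26b) had 7.87, 14, 20.5, 18.5 and 8.98 CPM over Days 2 to 6 in the main experiment and 26.8, 1.93, 31.5, 38 and 11.5 CPM in the pilot. Its eGFP++ sums held 3.89 and 0.183 CPM, below both Day 6 sums (-2.46 ± 1.57, adjusted p = 0.743), and the pilot value is 3 reads.

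Counted over the 9 members, edgeR called 0 in Day 6 against Day 2, where 0.585% of all genes tested were called higher and 0.249% lower. At an unadjusted p under 0.05 there were 2 members, beside 2206 of 16080 genes. DESeq2 called 2 members (Rest and Hdac1), beside 2035 of 16080 genes. In eGFP++ against Day 6 edgeR also called 0, beside 0.0% of all genes higher and 0.0311% lower. There 2 members had an unadjusted p under 0.05, beside 1011 genes, and DESeq2 called 2 (Rest and Kdm1a), beside 525 genes. In eGFP++ against Day 2, besides the Hdac1 call, 5 members had an unadjusted p under 0.05, beside 3191 of 16080 genes. DESeq2 called 5 members there (Rest, Rcor1, Hdac1, Hdac2 and Ctdsp1), beside 3588 of 16080 genes. The slope over the days gave 0 calls of members beside 1.97% of 15971 genes called rising and 2.21% falling. There 3 members had an unadjusted p under 0.05, beside 3119 genes, and DESeq2 called 2, beside 2597 genes. The test of any difference among Days 2 to 6 gave 0 beside 0.267% of all genes. It had 1 member unadjusted, beside 1174 genes, and DESeq2 called 2, beside 1279 genes. The slope of the share of cells gave 0 beside 1.53% of 13038 genes rising and 0.790% falling, with 3 unadjusted beside 3029 genes. That test has no DESeq2 counterpart. The members' median log2 change was 1.14 in eGFP++ against Day 2, where all genes had -0.29, and -0.59 in Day 6 against Day 2, where all genes had 0.17. It differed between the experiments. With sums under 3 reads set to 3, it was -1.02 for the main experiment and 0.62 for the pilot in eGFP++ against Day 2 (4 of 9 higher in the main experiment), and 0.0 and -0.51 in Day 6 against Day 2.

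Within a day, cells with and without a thinned read of the neuronal gene Stmn2, a tubulin-binding growth cone protein, were set side by side on Days 5 and 6. Stmn2 does not mark neurons alone in these cells: it was read in 45.2% and 38% of thinned cells on Day 6, against 45.6% and 10.8% on Day 2, where Rest was highest. Rest was read in none of the thinned cells with Stmn2 in any of the 4 sets. On Day 5 this was 0 of 72 cells with Stmn2 in the main experiment (up to 4.17%), against 8 of 254 without (3.15%, 1.60 to 6.09%). The pilot gave 0 of 6 with Stmn2 against 2 of 69 without. On Day 6 it was 0 of 160 with Stmn2 (up to 1.88%) against 2 of 194 without in the main experiment, and 0 of 27 against 0 of 44 in the pilot. With all their reads, the cells with Stmn2 held 0.538 CPM of Rest on Day 5 against 6.36 CPM without it in the main experiment, and 0.0 against 4.84 CPM in the pilot. On Day 6 the levels were 0.312 with and 1.08 CPM without Stmn2 in the main experiment, and 0.520 with and 6.94 CPM without in the pilot. Rest was lower in cells with Stmn2 in each set by this level, and the counting intervals of the shares overlapped in each. The levels rest on few cells. Among all kept cells, Rest was read in 5 main and 3 pilot cells on Day 6. In the pilot, 55.1% of the Day 6 reads and 49.3% of the Day 5 reads of Rest came from 1 cell each. Stmn2 is itself on the list of REST target genes given below.

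Of the corepressors, Hdac1, Hdac2 and Kdm1a are given here. On Day 6 Hdac1 was read in 21.2% of cells with Stmn2 and 40.2% without in the main experiment, and in 37% with and 22.7% without in the pilot, the opposite direction. Kdm1a was read in 35% of cells with Stmn2 and 21.6% without in the main experiment and in 51.9% with and 34.1% without in the pilot. Hdac2 was read in 53.8% with and 39.7% without Stmn2 in the main experiment and in 48.1% with and 47.7% without in the pilot. On Day 5 of the main experiment Hdac1 was read in 56.9% of cells with Stmn2 and 61.8% without, Hdac2 in 61.1% with and 57.1% without, and Kdm1a in 48.6% with and 40.6% without. The pilot set with Stmn2 has 6 cells on that day. Top2a, a marker of dividing cells, was read in 15% of main Day 6 cells with Stmn2 and 32.5% without, and thinned cells held a median of 1605.5 genes with Stmn2 and 1380.5 without. Their part in these shares was not tested. Cells of a plate are not replicates, and no test was run.

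**Figure D3:**
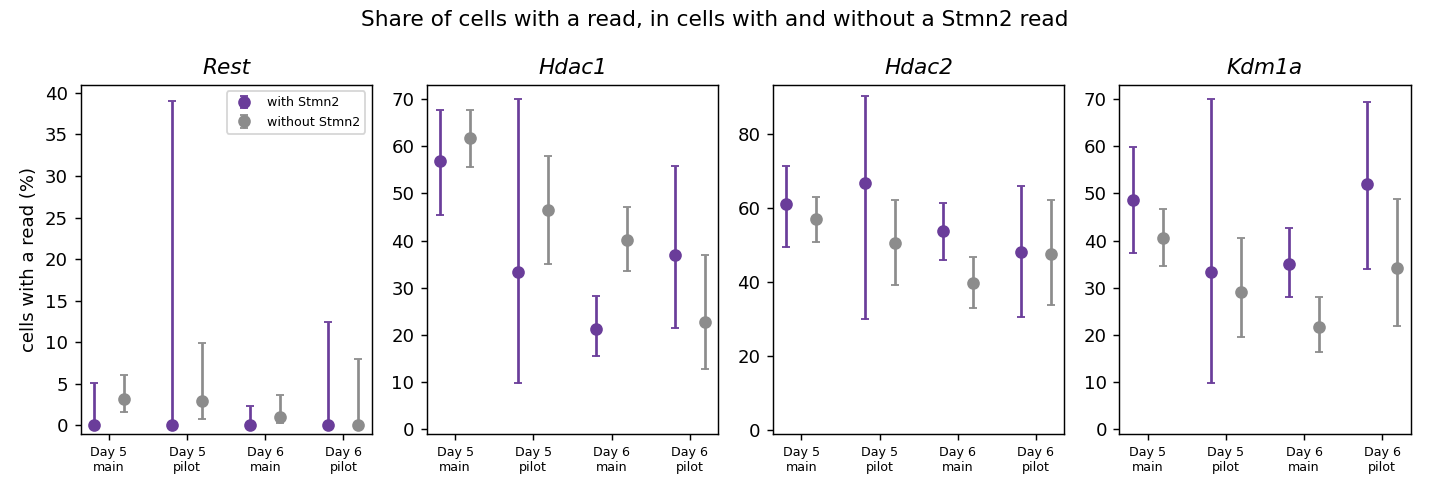
Percentage of thinned cells with a read of Rest, Hdac1, Hdac2 and Kdm1a (y axis) in cells with (purple, left) and without (grey, right) a Stmn2 read, for Days 5 and 6 of each experiment (x axis), with Wilson 95% intervals. Rest stands at 0 in each set of cells with Stmn2, and Hdac1 on Day 6 runs in opposite directions in the 2 experiments (21.2% with and 40.2% without in the main, 37% with and 22.7% without in the pilot).

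The members were also counted cell by cell. A thinned cell held on average 1.79 and 1.51 of the 9 members in eGFP++ cells and 1.73 and 2.18 on Day 6, against 2.64 and 1.26 on Day 2, and the number of genes per thinned cell moved with it (1486 and 1648 on Day 6 against 2092 and 1013 on Day 2). Reads of Rcor2, Kdm1a and at least 1 of Hdac1 and Hdac2 together, genes for the parts of a CoREST complex, were found in 19.9% and 7.69% of eGFP++ cells and 13% and 22.5% of Day 6 cells, against 25.6% and 4.05% of Day 2 cells. Of the 46 main Day 2 cells with a Rest read, 11 also held that set.

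The genes REST is known to silence had the largest median difference of the 3 lists examined in Day 6 and in eGFP++ cells against Day 2. A list of 25 such target genes held neuronal vesicle, synapse and cytoskeleton genes. Between Day 6 and Day 2, 4 of the 25 rose (Stmn2, Scg2, Stmn3 and Slc18a3), 0 fell and 23 had a positive change, where 0.585% of all genes rose and 0.249% fell. Of all 16080 genes, 8632 had a positive change. The other 2 targets had a negative change, uncalled, the lowest at -7.88. The median was 5.26 log2 units beside 0.17 over all genes. With sums under 3 reads set to 3, the median was 4.41 for the main experiment and 5.40 for the pilot. Without the pilot Day 2 sum or the pilot Day 6 sum 0 targets passed, without the main Day 2 or main Day 6 sum 1 did, without either Day 5 sum 2 did, and DESeq2 called 13. Of all 16080 genes tested, DESeq2 called 2035 in this comparison. Rest itself was lower in the same comparison, uncalled, and the targets Stmn2, Tubb3 and Snap25 are also among the 5 neuron markers, whose sum was 1463 and 1294 CPM on Day 6 against 183.7 and 97.3 CPM on Day 2. The targets Slc18a3 and Chat are also among the motor neuron markers. The part of cell makeup in these values was not tested.

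Scg2, which encodes the vesicle protein secretogranin II, had 88.6 and 113.7 CPM in eGFP++ cells and 44.5 and 25.6 CPM on Day 6, with no read in either Day 2 sum. With each Day 2 sum set to a floor of 3 reads, Scg2 was 2194-fold and 1992-fold higher in the main and pilot eGFP++ sums. On Day 6 it was 1103-fold and 449-fold higher. The floor covers counting error only, and a single amplified cell can bring many more reads, so these are not firm lower bounds. Stmn3, a stathmin family gene, had 1092 and 860.3 CPM in eGFP++ cells and 461.1 and 560.8 CPM on Day 6, against 3.26 and 3.33 CPM on Day 2 (Day 6 against Day 2, 7.24 ± 1.33, edgeR adjusted p = 0.0367). Stmn2 rose by 4.08 ± 0.40 in eGFP++ cells (adjusted p = 0.00108) and by 2.94 ± 0.38 on Day 6 (adjusted p = 0.00745) relative to Day 2. Its course was not a steady rise. Over Days 2, 4 and 5 it had 161.3, 22.7 and 161.1 CPM in the main experiment. In the pilot these days gave 69.6, 16.4 and 71.9 CPM. Its slope over the days was not called by edgeR (0.68 ± 0.24, adjusted p = 0.132). Slc18a3, the vesicular acetylcholine transporter gene, rose by 10.11 ± 1.86 on Day 6 (adjusted p = 0.0371). Tubb3, a neuronal tubulin gene, missed the call on Day 6 (5.42 ± 1.62, adjusted p = 0.176), as did Celsr3, a cadherin family gene of axon guidance (5.26 ± 2.07, adjusted p = 0.310).

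In eGFP++ against Day 2, 5 of the 25 targets rose, the 4 above and the glutamate receptor gene Gria2, and 0 fell, where 2.14% of all genes rose and 2.47% fell. The median was 3.89 beside -0.29 over all genes. Without the pilot Day 2 sum 1 passed, and without the main eGFP++ sum 8 did. Against Day 6, 0 targets passed in eGFP++ cells, with a median of 1.06 beside -0.52 over all genes. At an unadjusted p under 0.05 there was 1 target, beside 1011 of 16080 genes, and DESeq2 called 0, beside 525 genes. Over the days 6 targets rose (Chat, Gria2, Scg2, Slc18a3, Stmn3 and Tubb3) with a median slope of 1.03 log2 units a day beside 0.02, but 0 passed without either Day 6 sum and 2 without either Day 2 sum. In that slope 1.97% of all genes rose and 2.21% fell. The test of any difference among Days 2 to 6 called 4 targets, beside 0.267% of all genes. That of the share of cells called 0 of the 22 it could test, with 12 at an unadjusted p under 0.05, beside 3029 of 13038 genes.

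**Figure D4:**
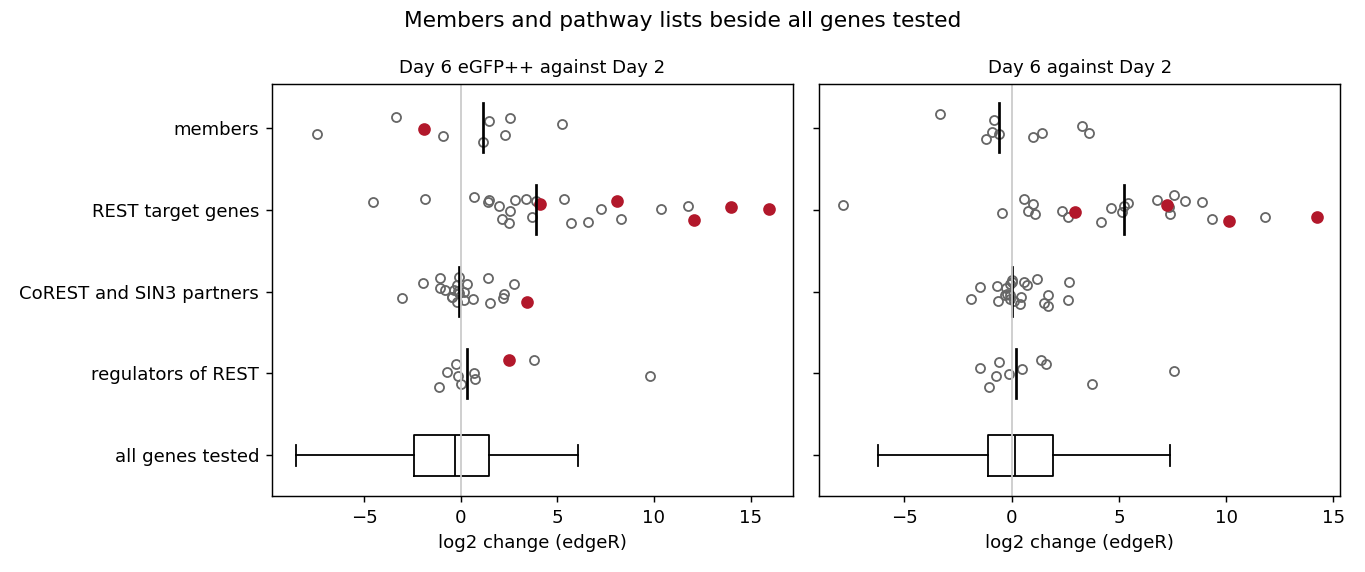
Log2 changes from edgeR (x axis) of the 9 members and the 3 lists (rows) in eGFP++ against Day 2 (left) and Day 6 against Day 2 (right). Each circle is a gene, filled red where the adjusted p was under 0.05, a black bar marks the median, and the box in the lowest row gives the quartiles of all genes tested with whiskers to the 5th and 95th percentiles. The REST target genes have medians of 3.89 and 5.26, beside -0.29 and 0.17 over all genes; under spike-in scaling the median of all genes was lower in both panels, -1.97 and -2.02.

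To show the element through which REST acts, promoter windows of RefSeq (build GRCm38.p6, 250 bases before to 50 after a start site) were searched on both strands for the left part of RE1, TTCAGCACC, and for a longer form, CAGCACCNNGGACAG, which shares its first 7 letters with the end of the other. The shorter motif was in 122 of 32851 promoters (0.371%) and in 4 of 26 promoters of the 18 target genes with an entry. The longer motif was in 12 promoters (0.0365%), among them that of the motor neuron gene Lhx3, which is no list member. The 8 promoters of the 7 members with an entry (Rest and Hdac1 have none in the table) held 0 of either. The sites are printed because they are the RE1-like letters beside genes whose levels are given here, with the matched motif in capitals and the printed strand named.
Scg2, chr1:79440018-79440040, plus strand: gggccgtTTCAGCACCggacagc
Celsr3, chr9:108825911-108825933, plus strand: agctccgTTCAGCACCgtgggca
Syn1, chrX:20921135-20921157, minus strand: tgtcggaTTCAGCACCgcggtca
Unc13a, chr8:71671720-71671742, plus strand: atgtcgcTTCAGCACCgggggcg
Lhx3, chr2:26208269-26208297, minus strand: cctccttCAGCACCGCGGACAGcgccagc
The Scg2 match spans the start site, from 7 bases before it to the base 2 after. A match of letters is a description and not a bound site. The values beside them differed widely. Syn1, a synaptic vesicle gene, had 5.03 and 6.20 CPM on Day 6 against 1.24 and 4.36 CPM on Day 2, Unc13a, a gene of vesicle priming, 84.1 and 14.9 against 2.15 and 0 CPM, Celsr3 46.5 and 58.4 against 2.46 and 0 CPM, and Lhx3 104.7 and 106.2 against 0.673 and 0 CPM.

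Further genes of the 2 complexes had median changes near those of all genes. Of 23 CoREST and SIN3 partner genes, 0 passed in Day 6 against Day 2 (median 0.02). There 3 had an unadjusted p under 0.05 and DESeq2 called 2, beside 2206 and 2035 of 16080 genes. In eGFP++ against Day 2 the median was -0.09. There Smarca4, the BRG1 remodeller gene, had 1.42 ± 0.50 (adjusted p = 0.139), and the histone-binding genes Rbbp4 and Rbbp7 had -0.09 ± 0.41 and -1.09 ± 0.44, uncalled.

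Of 10 genes that act on REST itself, 0 passed in Day 6 against Day 2 (median 0.19). There 4 had an unadjusted p under 0.05 and DESeq2 called 4, beside 2206 and 2035 of 16080 genes. In eGFP++ against Day 2 (median 0.34), where 2.14% of all genes rose and 2.47% fell, 1 of the 10 passed. This was Csnk1e, a casein kinase 1 gene whose product phosphorylates REST, at 349.1 and 155.6 CPM in eGFP++ cells against 44.2 and 33.6 CPM on Day 2 (2.49 ± 0.50, edgeR adjusted p = 0.0197). No regulator passed there without the pilot Day 2 sum, without the replicate block or in a fit of the 2 groups alone. Csnk1e also rose over the days (0.37 ± 0.09 a day, adjusted p = 0.0414), a call that was absent without either Day 2, Day 3 or Day 6 sum, the main Day 4 sum, the main Day 5 sum, the replicate block or the filter on low counts. Its share of cells over the days was called as well, and not without the low Day 3 plate. Without any 1 sum the share test called 0 of 13038 genes, since its smallest possible p was then larger. Those runs therefore say nothing of Csnk1e in particular. Srrm4, the splicing factor gene whose product switches REST to a truncated form in neurons, had 26 and 113.3 CPM in eGFP++ cells and 25.3 and 21.3 CPM on Day 6, against 0.807 and 0 CPM on Day 2. The differences were 9.78 ± 3.43 (adjusted p = 0.139) and 7.57 ± 3.11 (adjusted p = 0.327). Usp7, a deubiquitinase gene that stabilises REST, had 57.3 and 99.9 CPM in eGFP++ cells and 55 and 62.9 CPM on Day 6, against 137.1 and 175.6 CPM on Day 2 (eGFP++ against Day 2, -1.11 ± 0.46, adjusted p = 0.205).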

How the data were processed

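The authors deposited 35 tables of raw counts of reads per gene and well. Per the submitters' processing notes the tools were TopHat2 2.1.1 and HTSeq 0.6.1 with build mm10; no source used here names the strand setting. 27 entries not written alike in all tables were dropped, 40 columns matched no sample and were not used, and summary lines (34.9% of all reads) and 92 spike-ins (6.16%) stayed out of the library sizes. 0 kept cells were identical. No doublet caller was run, and wells were kept at 500 genes or more; 296 were left out. Day and eGFP group were taken from the labels.

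Sums were fitted with edgeR 4.0.16 (R 4.3.3; filterByExpr, TMM, 12 sums, experiment as block, Benjamini-Hochberg), with DESeq2 1.42.0 as an alternative, and the slope over the days with the 10 sums without eGFP++. The eGFP+ plate has no replicate and entered no test. Shares were tested by exact permutation of the days within experiments (14400 orders, smallest possible p 0.000139) for genes read in at least 10 thinned cells, in Python 3.11.15. The code was tested on simulated data. Main and pilot are separate experiments in the labels; the correlation of the main-minus-pilot deviations between pairs of groups was 0.0307 to 0.140 (median 0.0997, 15 pairs).

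All 9 members are named. From each of the 3 lists the text names up to 4 genes with the smallest p in Day 6 against Day 2, the 2 highest in CPM that did not pass, genes that passed another test, and the genes with a printed promoter site; likeness names the 5 genes nearest to Rest and the 3 nearest to a called member. Members and lists were chosen with earlier results of these data known. Coordinates are those of GENCODE M21 on GRCm38. The result of 1 gene of the partner list is not reported here.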

Additional observations from a re-analysis of the deposited data

Results flagged for a closer look

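Levels were also taken plate by plate in the main experiment, for groups with 4 or 5 plates. Main Day 4 and eGFP++ (3 plates each) and eGFP+ (1 plate) were not part of this check. In 7 of 36 sets of 4 or 5 plates the highest or the lowest plate stood apart by Dixon's 95% criterion. For normally distributed values chance alone meets it in about 1 set in 20. Levels set by a few amplified cells need not follow that distribution, so 7 of 36 cannot be read as an excess. Rcor3 stood high on 1 plate on Day 2 (45.3 CPM, the others 0.0 to 2.30), on Day 3 (3.22 CPM, the others 0.0 to 0.697) and on Day 5 (5.18 CPM, the others 0.810 to 0.908). Ctdsp1 was high on 1 Day 2 plate (22 CPM, the others 3.11 to 5.18), and Rcor1 on 1 Day 3 plate (21.3 CPM, the others 1.24 to 2.98). Hdac1 was low on 1 Day 3 plate (181.9 CPM, the others 259.6 to 279.5) and high on 1 Day 6 plate (178.1 CPM, the others 97 to 104.8), in a group where 1 cell held 14.4% of the Hdac1 reads.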

How the results depend on the processing

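Rest was lower in the later group in each sum comparison under every alternative run. For Day 6 against Day 2 it passed in 3 of 23 alternatives (adjusted p 1.05e-05 to 0.879): -3.43 with DESeq2, -3.42 with cells counted and -5.77 with spike-in scaling. For eGFP++ against Day 6 it passed in 1 of 23 (0.0193 to 1.0), -3.95 with DESeq2, and was -2.36 in the main experiment alone, -1.39 with cells counted and -0.43 thinned. For eGFP++ against Day 2 it passed in 4 of 23 (3.7e-09 to 0.276): -7.38 with DESeq2, -7.64 without the replicate block, -4.82 with cells counted and -9.26 with spike-in scaling; the main and pilot experiments alone gave -7.10 and -6.89, with sums under 3 reads set to 3. The slope passed in 4 of 20 (0.000165 to 0.258): -0.84 with DESeq2, -0.71 with cells counted, -1.41 with spike-in scaling, and also -0.84 without the pilot Day 4 sum (0.0497). Adjusted p for any difference was 0.0384 with DESeq2 and 7.45e-05 with cells counted (2 of 22 passed, up to 1.0). The share slope passed in wells with at least 1000 genes (-2.15, adjusted p 0.0473; others up to 0.184), and was -0.688 at 2000 reads, -0.542 with 3 or more reads, -4.50 unthinned and -1.08 without the main Day 2 sum. Leaving out each sum gave Rest -4.75 to -2.46, -5.61 to -2.79, -9.07 to -6.81, an adjusted p of 0.737 to 1.0, slopes of -0.96 to -0.73 and share slopes of -2.42 to -1.08, in the same order. Members called moved to 2 with DESeq2, 2 with cells counted, 1 with thinned cells and 4 with spike-in scaling in Day 6 against Day 2; to 2 with DESeq2 in eGFP++ against Day 6; to 5 with DESeq2, 2 without the replicate block, 3 with cells counted, 2 thinned, 2 with spike-ins and 0 with the 2 groups alone in eGFP++ against Day 2; to 2, 2 and 1 (DESeq2, cells, spike-ins) for any difference; to 2, 4, 1 and 4 (DESeq2, cells, thinned, spike-ins) for the slope; and to 1 for the share slope in wells with at least 1000 genes. Leaving out 1 sum gave 0 to 2 in eGFP++ against Day 2 and in the slope, and 0 elsewhere. The Hdac1 call held in 18 of 23 alternatives (3.23e-05 to 0.206), and not with the 2 groups alone (0.195), with cells counted, or without the 3 sums named above.

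Signs turned as follows, with causes not tested. In Day 6 against Day 2: Rcor3 -1.71 without the replicate block and -1.38 thinned, Rcor2 -0.89 and Hdac2 -1.32 with spike-ins. In eGFP++ against Day 2: Rcor1 -0.60 with cells counted, Rcor2 -0.27 and Kdm1a -0.52 with spike-ins. In eGFP++ against Day 6: Rcor1 -1.60 with cells counted and -0.46 with the 2 groups alone, Rcor2 -0.08 with at least 1000 genes and -0.41 thinned, Rcor3 3.46 without the replicate block, 3.47 thinned and 1.29 with the 2 groups alone, Sin3a 0.07 with RLE factors and DESeq2, 0.06 without the replicate block and 0.37 with spike-ins. In the slope: Rcor2 -0.19, Rcor3 -0.05, Hdac2 -0.24 and Ctdsp1 -0.42 with spike-ins, Rcor3 -0.41 without the replicate block, Ctdsp1 -0.21 thinned. In the share slope: Kdm1a -0.0842 at 2000 reads and -0.318 with 3 or more reads. Leaving out each sum, the ranges that crossed 0 were Ctdsp1 -1.80 to 0.89 and Rcor3 -1.42 to 6.47 in Day 6 against Day 2; Rcor1 -0.76 to 9.25 in eGFP++ against Day 2; Rcor1 -5.35 to 3.58, Rcor2 -0.44 to 0.78, Rcor3 -2.26 to 4.37, Sin3a -0.47 to 0.20 and Hdac2 -0.27 to 2.16 in eGFP++ against Day 6; Rcor3 -0.38 to 1.56 and Ctdsp1 -0.08 to 0.18 in the slope; Ctdsp1 -0.141 to 1.5 and Kdm1a -0.498 to 1.31 in the share slope.

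Spike-in scaling moved the median of all genes to -2.02 in Day 6 against Day 2, -1.97 in eGFP++ against Day 2, -0.05 in eGFP++ against Day 6 and -0.51 a day. All genes called were 134 in Day 6 against Day 2 and 2035 with DESeq2, 3540 with cells counted, 618 thinned, 2146 with spike-ins, 508 with the 2 groups alone and 8 to 269 without a sum. They were 741 in eGFP++ against Day 2 (3588, 4477, 1402, 1888, 434 and 169 to 1949 in that order) and 5 in eGFP++ against Day 6 (525, 151, 18, 0, 21 and 0 to 761). The slope had 667 (DESeq2 2597, cells 2994, thinned 1038, spike-ins 4819, without a sum 135 to 966), any difference 43 (1279, 3080, 439, 312, 19 to 80) and the share slope 302 (0 unthinned, 471 with at least 1000 genes, and 0 without any 1 sum, where the smallest possible p is 0.000347 to 0.000694). With the low Day 3 plate left out, an alternative chosen after seeing the data, no call of a member changed. Depth limits Rcor1, Rcor3 and late Rest, which rest on few cells.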
